A study of Mus musculus with 18 samples.

Results

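The kidneys of CD1 mice kept in room air were followed on 6 arrays, which were chosen by their titles from the 18 arrays of the series. Ages below are weeks counted from postnatal day 2. CD1 is an outbred stock, and the labels name no allele or drug in any group. Pups of several litters were divided among 9 groups at postnatal day 2, and those of room air were sampled after 1, 2 or 4 weeks, with 2 arrays, called A and B, for each of these ages. The other 12 arrays came from pups kept equally long in constant hypoxia (11% oxygen) or intermittent hypoxia (21% and 11% oxygen exchanged every 4 minutes). Each array carried kidney cDNA of 1 mouse labelled male (Cy5) against that of 1 mouse labelled female (Cy3) of equal treatment and age, and the dyes were not swapped. The labels give each array its own animal codes, so the 2 arrays of an age are taken as separate pairs of animals.

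The mouse kidney is born unfinished. In the days after birth the last nephrons form and the progenitor cells that make them are used up, and over the following weeks the tubules lengthen, take on their adult transporters and come to rely on mitochondrial and peroxisomal oxidation of fatty acids. Cell division and matrix deposition are high in the newborn organ and decline as it matures, and hormones of puberty later make proximal tubule cells of males and females differ.

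The deposited value of a probe is the log2 ratio of the 2 channels, and this limits what a course over age can show. A transcript that gained or lost abundance equally in both animals of each pair leaves the ratio as it was. The labels do not say which channel was divided by which, so "higher" and "lower" below describe the centred ratio itself, and not an abundance in the kidney or a sex. In whole kidneys, fewer cells of a type and less RNA per cell cannot be told apart.

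The arrays carry 16128 cDNA probes. Between 6614 and 10946 of them (41% to 67.9%) had a deposited value on a room air array, and the deposited medians of the 6 arrays lay between -0.07 and 0.09. A value on all 6 arrays was present for 5230 probes, which gave 4685 features after averaging the probes of a gene: 3328 genes and 1357 probes without a single gene symbol. Pairs of the same age were only weakly alike. Across features the Pearson correlation was 0.36 between the arrays of 1 week, 0.19 between those of 2 weeks and 0.35 between those of 4 weeks, whereas pairs of different ages ranged from -0.15 to 0.43. Ratios also followed the position of the probe in the numbering: a running median along the probe number carried between 12.4% (2 weeks B) and 50.9% (4 weeks A) of the variance of an array. With that running median removed the correlations within an age were 0.31, 0.38 and 0.03, in order of age. The features share their libraries and their place on the slide, so these correlations are descriptions only.

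**Figure D1:**
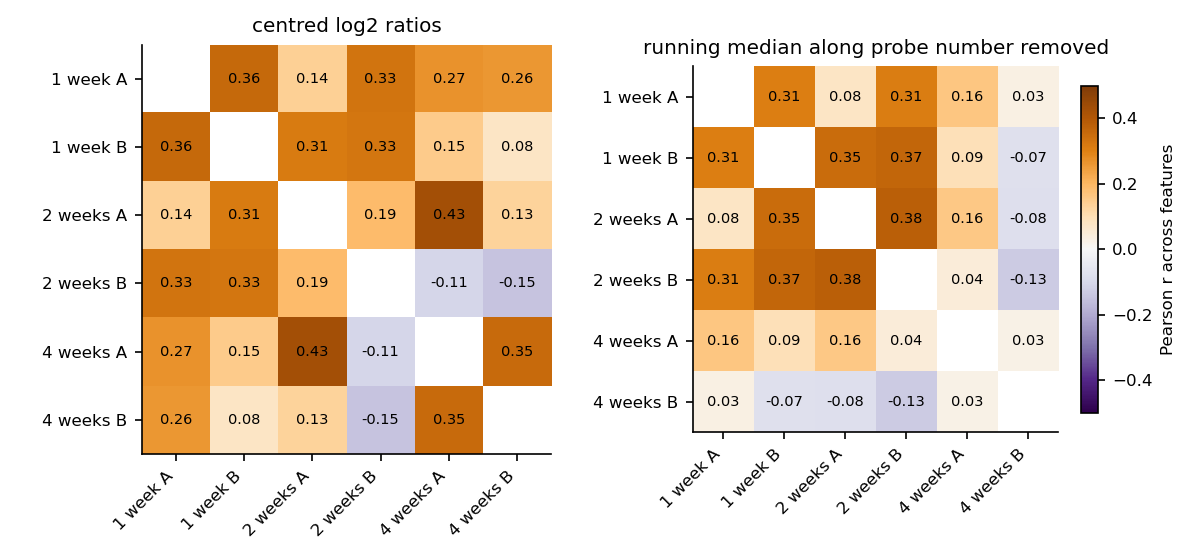
Pearson correlation between each pair of the 6 room air arrays across 4685 features, for the centred log2 channel ratios (left) and after a running median along the probe number was removed (right). The 2 arrays of 4 weeks correlate at 0.35 before and at 0.03 after the removal, and those of 2 weeks at 0.19 before and at 0.38 after.

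The sexes named in the labels were checked first. Eif2s3y, a translation factor gene of the Y chromosome, read 0.43 and -0.07 at 1 week, -1.83 and 0.43 at 2 weeks, and 0.06 and 1.66 at 4 weeks. It therefore stood far from 0 on only 2 arrays, and on these with opposite signs. A probe annotated to both Xist, the RNA that silences an X chromosome in females, and its antisense partner Tsix was its mirror image, at 3.11 on 2 weeks A and -2.78 on 4 weeks B and between -0.53 and 0.11 on the other 4 arrays. Another Xist probe read -0.07 on 2 weeks A and 0.21 on 4 weeks B, and thus did not share this pattern. The other measured sex-linked genes were Kdm5c, an X-linked histone demethylase that was below 0 on all 6 arrays (-0.63 to -0.15), Kdm6a, a related demethylase (-0.70 to 0.27), and Ddx3x, an X-linked RNA helicase (-0.46 to 0.57). Arrays 2 weeks A and 4 weeks B thus carry opposite signs for Eif2s3y and the Xist and Tsix probe, and the other 4 arrays show little difference between the channels, against labels that give every array 1 male and 1 female. Many differences between 4 weeks and 1 week move when 4 weeks B or another single array is left out, and examples are given beside the gene lists.

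Some genes of the androgen-dependent and sex-biased list read high on 4 weeks B, which carries the sex-linked signal, and others did not. Abcc3 read 0.10 there and Hsd3b4 -0.35. Odc1 and Nudt19 were also above 0 on 2 weeks A, where the sex-linked probes had the opposite signs. Odc1, the ornithine decarboxylase that starts polyamine synthesis, read -0.45 and -0.01 at 1 week, 0.71 and -0.21 at 2 weeks, and -0.11 and 1.69 at 4 weeks. Nudt19, a peroxisomal coenzyme A hydrolase long known as an androgen-regulated kidney protein, read -1.25, 0.23, 1.03, -0.42, -0.53 and 1.59 in the same order. Timd2, which encodes a membrane protein of the TIM family, reached 2.17 on 4 weeks B by its first probe, against 0.18 to 1.05 on the 4 other arrays that measured it, and Cndp2, a dipeptidase gene, read 3.44 there against -0.59 to 0.06. Timd2 and Cndp2 were chosen after their values were seen, and Cndp2 had no value on 4 weeks A. The ages overlapped in Odc1 and Nudt19: the difference between 4 weeks and 1 week was 1.03 ± 0.53 (SE) for Odc1 (limma, adjusted p = 0.70) and 1.04 ± 0.79 for Nudt19 (adjusted p = 0.80). Without 4 weeks B these differences were 0.13 and -0.02. None of the 7 measured members of the androgen-dependent list had ages that did not overlap, beside 19.2% higher and 23.8% lower of all features. Their median difference was 0.09, beside -0.02 over all features. The remaining members gave 0.25 ± 0.24 (Slc22a7, an organic anion transporter), 0.09 ± 0.36 (Gusb, the lysosomal beta-glucuronidase), 0.07 ± 0.29 (Esr1, an estrogen receptor), -0.03 ± 0.35 (Miox, which degrades inositol) and -0.15 ± 0.50 (Hsd3b4, a steroid dehydrogenase).

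The main question was which ratios differed between 1 week and 4 weeks in room air. No feature passed an adjusted p of 0.05 in limma's moderated test, fitted over all 18 arrays (percent called 0); the smallest adjusted p was 0.439. At an unadjusted p under 0.05 there were 376 features (8.03%), of which 90 (1.92%) were higher and 286 (6.1%) lower at 4 weeks. The typical difference was smaller than its error: the median size was 0.23 on the log2 scale, the median standard error 0.29, and 61 features differed by more than 1. Values of both arrays at 4 weeks lay above both at 1 week in 898 features (19.2%) and below both in 1116 (23.8%). With 2 arrays against 2, an exact permutation test of one feature cannot give a two-sided p below 0.333.

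The direction of the whole distribution rests on the centring. After each array was centred on the median of the features tested, 47.9% of features were higher at 4 weeks and the median difference was -0.02. As deposited, without centring, 70.5% were higher and the median difference was 0.20, and centring on all values of an array gave 58.6% and 0.07. Differences below are relative to the median feature.

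The 12 genes named on the lower side are those of smallest p whose ages did not overlap. Tapbp encodes tapasin, which holds class I molecules of the major histocompatibility complex on the peptide transporter. It read 1.41 and 0.74 at 1 week, 0.41 and 0.30 at 2 weeks, and -0.37 and -0.07 at 4 weeks. The 3 ages did not overlap and were ordered by age, and the difference was -1.29 ± 0.24 (SE; limma, adjusted p = 0.44). Dsc2, the desmosomal cadherin desmocollin 2, had the same order, with 0.73 and 0.57 at 1 week, -0.18 and -0.22 at 2 weeks, and -0.43 and -0.72 at 4 weeks. Its difference was -1.23 ± 0.24. Capg, a protein that caps actin filaments in motile cells, had another course: 0.69 and 0.40 at 1 week, 0.43 and 0.82 at 2 weeks, and -0.71 and -0.88 at 4 weeks. Here 1 and 2 weeks overlapped and 4 weeks lay below both, with a difference of -1.34 ± 0.34 to the first week. Csrp1, a LIM-domain protein of smooth muscle and other contractile cells, read 0.91, 0.59, -0.04, 0.34, -0.30 and -0.24 in the same order, a difference of -1.01 ± 0.25.

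The other lower genes named by the same rule were Zfand2a, a zinc finger protein linked to the proteasome; Fbxo6, an F-box protein that recognises glycoproteins; Psmd9, a chaperone of proteasome assembly; Nfkbiz, an atypical inhibitor of nuclear factor kappa B; Ppih, a cyclophilin of the spliceosome; Spg20, the hereditary spastic paraplegia gene spartin; Ppm1m, a phosphatase; and Snord123, a small nucleolar RNA. Their differences ran from -1.22 (Zfand2a and Nfkbiz) to -0.89 (Ppm1m), each with an adjusted p of 0.44. All 12 lower genes were above 0 on both arrays of 1 week, and 10 of 12 were below 0 on both arrays of 4 weeks. The exceptions were Ppih, at 0.02 on 4 weeks A, and Ppm1m, at 0.12 there. Selection for ages that do not overlap and for small p itself favours opposite sides of 0. Over all 4685 features, in either direction, both arrays of each of these ages lay on opposite sides in 618. The mean of 2 weeks lay between the other ages in 9 of the 12, as for Tapbp, and outside in the other 3: above both for Capg, and below both for Spg20 and Ppm1m.

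The 12 genes named on the higher side were chosen in the same way. Pgk1, the phosphoglycerate kinase of glycolysis, read -0.18 and -0.66 at 1 week, -0.60 and -0.72 at 2 weeks, and 0.46 and 0.77 at 4 weeks. The first 2 ages overlapped and both arrays of 4 weeks lay above them, with a difference of 1.04 ± 0.24 (SE; limma, adjusted p = 0.44). Sec62, part of the channel through which proteins enter the endoplasmic reticulum, read -0.72, -0.66, -0.09, -0.96, 0.20 and 0.71 in order of age. Atp5pb, a stalk subunit of mitochondrial ATP synthase, read -0.52 and -0.46 at 1 week, 0.35 and -0.04 at 2 weeks, and 0.46 and 0.79 at 4 weeks. Its 3 ages did not overlap and were ordered by age, and the difference was 1.11 ± 0.27, close to the 1.14 ± 0.27 of Sec62. Psap, the precursor of the lysosomal saposins, read -0.66 and -0.21 at 1 week and 0.12 and 1.04 at 4 weeks, with -0.32 and -0.91 in between. Abcd3, a transporter of fatty acids into peroxisomes, read -0.24 and -0.10 at 1 week, -0.04 and -0.29 at 2 weeks, and 0.29 and 0.93 at 4 weeks.

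The probe of Psap is numbered next to that of Xist and Tsix. Psap and Abcd3 leaned on 1 array: their differences of 1.02 ± 0.32 and 0.78 ± 0.26 were 0.56 and 0.46 without 4 weeks B. The same held for Ppih among the lower genes, at -1.15 ± 0.29 with and -0.71 without 1 week A. The other higher genes were Entpd4, a nucleotide phosphatase of the Golgi; Ccdc91, a Golgi trafficking protein; Retreg1, a receptor for autophagy of the endoplasmic reticulum; Vcp, an ATPase that extracts ubiquitinated proteins; Otulin, which cleaves linear ubiquitin chains; Adcy3, an adenylyl cyclase; and Snrpd2, a core protein of the spliceosome. Their differences ran from 0.60 (Snrpd2 and Vcp) to 0.79 (Entpd4), with adjusted p values of 0.49 to 0.50. All 12 higher genes were below 0 on both arrays of 1 week and above 0 on both of 4 weeks, and the genes were selected for ages that do not overlap. The mean of 2 weeks lay between the other ages in 7, below both in 4 and, for Otulin (0.51 and 0.33 at 2 weeks, 0.19 and 0.16 at 4 weeks), above both.

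**Figure D2:**
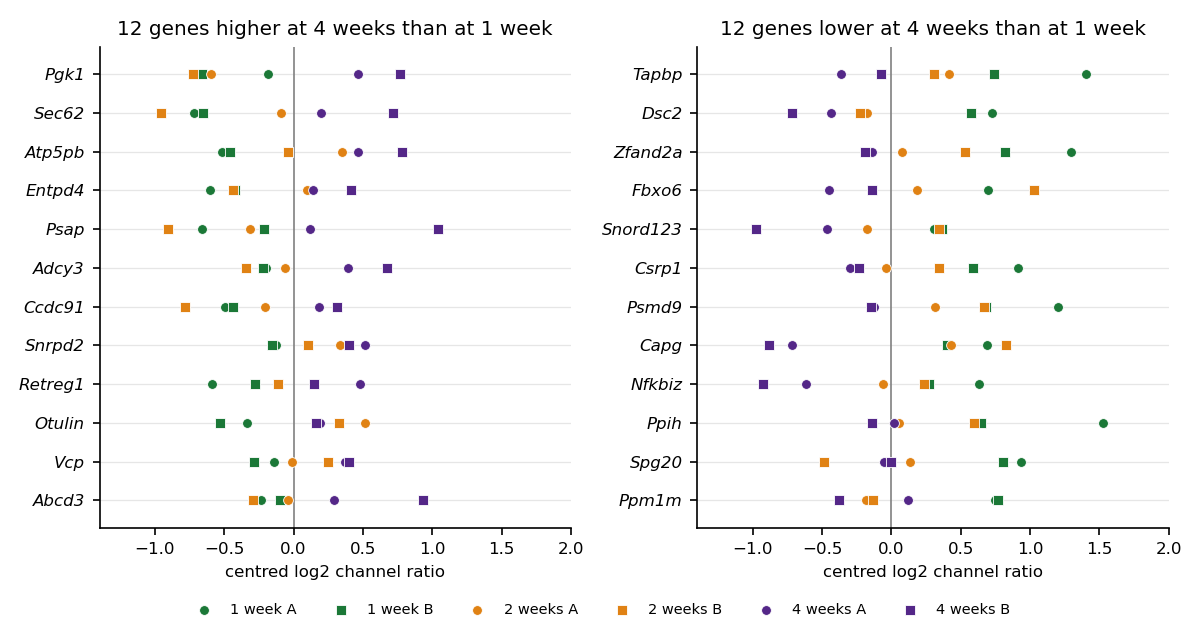
Centred log2 channel ratio of the 24 named genes on each room air array (circles, array A; squares, array B; colours, age). For Tapbp the arrays of 1 week sit at 1.41 and 0.74 and those of 4 weeks at -0.37 and -0.07; for Pgk1 the arrays of 4 weeks, at 0.46 and 0.77, lie above the other 4.

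Part of these differences moved with the position of the probe. With the running median along the probe number removed, 21 of the 24 differences were smaller, the median size went from 1.03 to 0.70, and 8 shrank by over 1.5 times: Capg to -0.65, Psmd9 to -0.55, Nfkbiz to -0.74, Snord123 to -0.70, Atp5pb to 0.65, Entpd4 to 0.41, Snrpd2 to 0.16 and Vcp to 0.16. Tapbp kept its size, at -1.34, and passed the threshold under this setting (limma, adjusted p = 0.03). Its adjusted p ranged from 0.03 to 0.86 over 19 alternative settings. Pgk1 was also nearly as large, at 1.02. None of the 24 genes had a second probe with a value on all 6 arrays. A further probe with values at both ages existed for 3 of them: that of Entpd4 gave 0.82, that of Retreg1 0.13 and that of Vcp -0.06, the last against the sign of the tested probe. Some of the 24 probes are close neighbours, with Atp5pb, Vcp, Snrpd2 and Entpd4 at numbers 3427, 3438, 3439 and 3486, and Ppih, Zfand2a and Csrp1 at 6065, 6069 and 6079. Of the 451 genes that had several, 51.7% had all probes on one side of 0, and the 2 probes of 383 genes correlated at 0.15 across genes in this difference (0.26 with the running median removed).

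**Figure D3:**
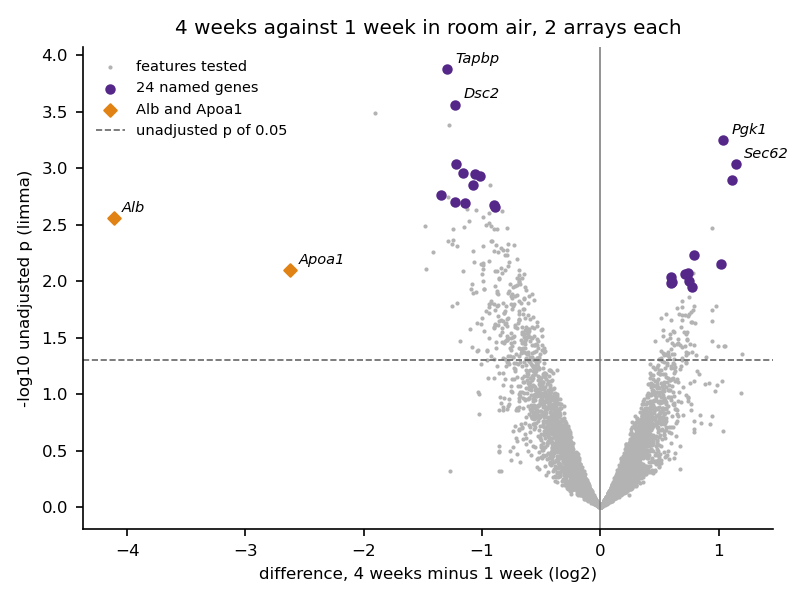
Difference between 4 weeks and 1 week (log2, x axis) against the unadjusted p of limma's moderated test on a -log10 scale (y axis) for 4685 features. The 24 named genes are purple, Alb and Apoa1 orange, and the dashed line marks an unadjusted p of 0.05, which 376 features pass; no feature passes after adjustment.

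The largest differences of all belonged to transcripts of plasma proteins that the liver makes, and they were chosen for description after their values were seen. Alb, which encodes serum albumin, read 1.29 and 5.31 at 1 week, 2.78 and 1.68 at 2 weeks, and -0.81 and -0.82 at 4 weeks. Both arrays of 4 weeks lay below the 4 younger ones, and the difference to 1 week was -4.11 ± 1.08 (SE; limma, adjusted p = 0.44). Leaving out 1 array at a time gave -6.12 to -2.10, the smaller size without 1 week B. Apoa1, the main protein of high-density lipoprotein, read 1.02 and 4.68 at 1 week, 0.11 and 0.94 at 2 weeks, and 0.31 and 0.14 at 4 weeks, a difference of -2.62 ± 0.84 (adjusted p = 0.50) that was -0.79 without 1 week B. It passed the threshold only without 1 week A, where a lone array stood for its age (-4.45, adjusted p = 0.03).

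The height of Apoa1 lay mainly on 1 week B, whereas Alb was highest there but also above 1 on 1 week A and both arrays of 2 weeks. On 1 week B 3.21% of all deposited values exceeded 1 in size. Of 36 liver-made plasma protein genes listed, 8 had a value there, with a median of 3.28. Of these, 7 exceeded 1. They included Serpina1e, an alpha-1-antitrypsin gene (3.93, against -0.96 to -0.01 on the 4 other arrays with a value), Mbl2, a mannose-binding lectin (3.45, with no value elsewhere), Ttr, the thyroxine carrier transthyretin (3.12, against 1.16 on 1 week A), and Apoc2, a cofactor of lipoprotein lipase (2.80, against -0.16 to 0.22). Apob was the exception on 1 week B, at 0.36 there, 0.80 on 1 week A, and 0.49 and 0.66 at 4 weeks. On 1 week A the median of 6 such genes was 0.91, and on the arrays of 4 weeks it was -0.12 and -0.14. Probes of H19, an imprinted RNA that is abundant in fetal liver and other fetal tissues, were also high on 1 week B, at 2.03, 1.91, 1.69, 1.20 and 0.29 by 5 probes. Of these the probes at 1.69 and 0.29 had a value on all 6 arrays and formed the tested feature, whose difference was -0.21 ± 0.32. The part of liver transcripts in other results that rest on 1 week B was not tested. The probe numbered 3 after Alb, annotated to the proton pump subunit Atp6v0a1, read 4.32 on 1 week B and 1.75 on 1 week A, and the unnamed probe 3 after Apoa1 read 4.00 and 0.83. The probe 3 after Serpina1e, in contrast, read -0.94 on 1 week B. Across all probes of an array, those 3 numbers apart correlated at 0.22 to 0.27 with the running median removed, against 0.05 to 0.18 for those 4 apart.

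**Figure D4:**
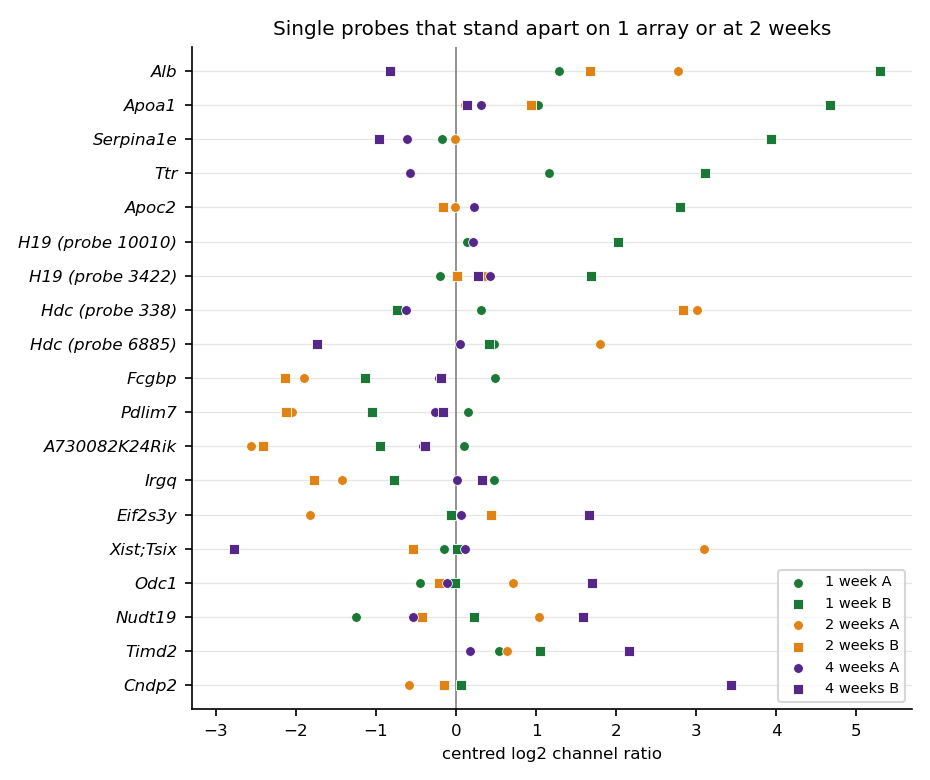
Centred log2 channel ratio of single probes that stand apart on 1 array or at 2 weeks (circles, array A; squares, array B; colours, age; arrays without a value have no point). Alb, Apoa1, Serpina1e, Ttr, Apoc2 and H19 are highest on 1 week B, Hdc is highest at 2 weeks, Fcgbp, Pdlim7, A730082K24Rik and Irgq are lowest at 2 weeks, and Odc1, Timd2 and Cndp2 are highest on 4 weeks B.

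Marker lists gave little hold on the cell types of the maturing kidney. A gain or loss shared by both animals of a pair leaves the ratio as it was, and few members were measured on all 6 arrays. No member of any list passed the adjusted threshold in limma. Of 39 proximal tubule markers, 5 were measured, of which 3 were higher and 2 lower at 4 weeks, with a median difference of 0.18 beside -0.02 over all features. That median was 0.03 without 4 weeks B, 0.03 without 1 week A and 0.41 without 1 week B. Lrp2, the endocytic receptor megalin of the brush border, had ages that did not overlap, at -0.33 and -0.38 at 1 week, -0.55 and -0.10 at 2 weeks, and 0.14 and 0.05 at 4 weeks. Its difference was 0.45 ± 0.24 (SE; limma, adjusted p = 0.71). The other 4 were Slc22a7 and Miox, given above, Gatm, which starts creatine synthesis (0.18 ± 0.43), and Gpx3, a secreted glutathione peroxidase (-0.18 ± 0.32). The 3 measured markers of the loop of Henle, distal tubule and collecting duct had differences below 0 (median -0.44), but 1 of the 3 was above 0 without 4 weeks B (median -0.20) and without 1 week B (median -0.22). They were Slc4a1, the anion exchanger of intercalated and red cells (-0.44 ± 0.23), Calb1, a calcium-binding protein of the distal convoluted tubule (-0.46 ± 0.27), and Fxyd4, a regulator of the sodium pump in the collecting duct (-0.14 ± 0.27). Fxyd4 was the gene that crossed 0.

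Of 6 measured endothelial genes 5 had differences below 0, with a median of -0.27 and ages that did not overlap in 3 lower and 1 higher (23.8% and 19.2% of all features). This count rested on single arrays: 3 of 6 were above 0 without 4 weeks B (median -0.03) and without 1 week A (median -0.09). Cdh5, the cadherin of endothelial junctions, read 0.46 and 0.27 at 1 week, 0.03 and -0.27 at 2 weeks, and -0.13 and -0.22 at 4 weeks. Its difference was -0.54 ± 0.21 (adjusted p = 0.57), or -0.30 with the running median removed. Cd34, a sialomucin also found on progenitor cells, went the other way (0.35 ± 0.23). Ehd3, an endocytic protein of glomerular endothelium (-0.36 ± 0.22), and Ece1, which activates endothelin (-0.31 ± 0.25, or -0.11 without 4 weeks B), were lower without overlap, and Esam (-0.24 ± 0.29) and Emcn (-0.05 ± 0.41), a pair of endothelial surface proteins, overlapped. Podocyte markers gave -0.16 over 3 genes, stromal markers 0.08 over 5, immune markers -0.07 over 6, and each of these medians changed sign under at least 4 of the 19 alternatives. Differences in podocyte markers ran from -0.35 ± 0.32 (Podxl, podocalyxin) over -0.16 ± 0.35 (Wt1, a transcription factor) to 0.16 ± 0.43 (Cdkn1c, a cell cycle inhibitor). Stromal markers ran from -0.23 ± 0.24 (Col3a1) over -0.09 ± 0.26 (Col1a1), 0.08 ± 0.50 (Col1a2) and 0.17 ± 0.25 (Pdgfrb) to 0.33 ± 0.26 (Dcn, decorin). Immune markers ran from -0.80 ± 0.41 (Fcer1g, a chain of Fc receptors) over -0.29 ± 0.25 (C1qa), -0.26 ± 0.41 (Lyz2), 0.11 ± 0.30 (Laptm5) and 0.18 ± 0.26 (S100a9) to 0.23 ± 0.31 (C1qc). Nephron progenitors were represented by 2 genes, Emx2 (0.41 ± 0.52) and Wnt4 (0.10 ± 0.61, or -0.23 without 1 week A and -0.39 without 4 weeks A), and neither Six2 nor Cited1, which define these cells, was measured on all arrays.

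Erythroid markers, which could mark blood left in the organ, were lower in 5 of 8, with a median of -0.26 that was -0.03 without 1 week A and -0.16 without 4 weeks B. Hbb-y, an embryonic beta-globin gene whose probes may also bind other beta-globin transcripts, read -0.07 and 0.09 at 1 week, -0.14 and 0.94 at 2 weeks, and -0.19 and -0.80 at 4 weeks, and its difference was -0.50 ± 0.42, or -0.20 without 4 weeks B. Car1, the carbonic anhydrase of red cells (-0.46 ± 0.34, but 0.17 without 4 weeks B), and Gata1, the erythroid transcription factor (-0.28 ± 0.34), were also on the lower side. So were Slc4a1, given above, and Hbb-b1 (-0.25, but 0.29 without 1 week A). Tfrc (0.22, but -0.11 without 4 weeks B), Fech (0.20) and Car2 (0.13) went the other way. The list's median was above 0 after either removal of the trend along the probe number, the highest value over the alternatives being 0.09. Hsd3b1, a steroid dehydrogenase, was the sole measured marker of the adrenal, fat, muscle and pancreas. It read 0.20, 1.05, -2.44, 0.02, 0.29 and -0.76 in order of age, and so stood apart mainly on 2 weeks A.

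The ratios of cell division genes showed no common direction, and a change shared by both animals of a pair would not appear in them. Of 29 measured members 14 were higher and 15 lower, with a median of -0.02, the same as over all features. Birc5, the mitotic protein survivin, read 0.16 and 0.07 at 1 week and -0.86 and -0.29 at 4 weeks (difference -0.69 ± 0.27), while Hmgn2, a nucleosome-binding protein, read 0.38 and -0.19 at 1 week and 0.45 and 1.12 at 4 weeks (0.69 ± 0.30). Without 4 weeks B the difference of Hmgn2 was 0.36, and without 4 weeks A that of Birc5 was -0.41. Bub3, of the spindle checkpoint, had a difference of -0.51 ± 0.28, and Rpa2, of the single-strand DNA binding complex, of -0.74 ± 0.38, and without 1 week A these were -0.30 and -0.42. The imprinted and fetal growth genes were likewise divided, 5 higher and 6 lower, with a median of -0.06. Mest and Peg3, a pair of imprinted genes expressed from the paternal copy, had differences of 0.34 ± 0.27 and 0.33 ± 0.27.

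Of 25 matrix genes 17 were lower, with a median of -0.15, which was -0.09 without 4 weeks B. Ages did not overlap in 7 lower and 2 higher members, beside 23.8% and 19.2% of all features, so that the lower share lay near that of all features. Mgp, the matrix protein that restrains calcification of vessels and cartilage, read -0.36 and -0.38 at 1 week, -1.09 and 0.39 at 2 weeks, and -1.3 and -1.87 at 4 weeks. The arrays of 4 weeks lay below the other 4, and the difference of -1.21 ± 0.44 (adjusted p = 0.54) was -0.84 with the running median removed. Serpinh1, the chaperone of procollagen, Col18a1, the basement membrane collagen that yields endostatin, and Col4a2, a main chain of the basement membrane, gave -0.53 ± 0.34, -0.42 ± 0.23 and -0.31 ± 0.23. The list's median kept its sign under all alternatives except the uncentred values, where it was 0.06 beside 0.20 over all features.

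Of the 4 lists of energy metabolism, glycolysis and fatty acid oxidation kept a median above 0 under all 19 alternatives, and the tricarboxylic acid cycle and oxidative phosphorylation did not. Some alternatives cannot change these medians: those of the variance model, the letter block, the arrays of other groups, or a 2-week array left out. Without centring the median of all features was itself 0.20. In glycolysis and gluconeogenesis 7 of 8 measured genes were higher, the median was 0.29, and ages did not overlap in 4 higher and 0 lower (19.2% and 23.8% of all features). Beside Pgk1 these were Ldhb, the lactate dehydrogenase subunit of oxidative tissues (-0.41 and -0.65 at 1 week, -0.10 and 0.42 at 4 weeks; 0.69 ± 0.33, or 0.43 without 4 weeks B), Hk1, the hexokinase bound to mitochondria (0.31 ± 0.21), and Ldha, the other lactate dehydrogenase subunit (0.31 ± 0.35, or 0.12 without 4 weeks B). The median of the list was 0.20 without 4 weeks B. At 2 weeks the list split by array, with a median of 0.03 on 2 weeks A and -0.60 on 2 weeks B.

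In fatty acid oxidation and the peroxisome 14 of 20 genes were higher, with a median of 0.20 and ages that did not overlap in 6 higher and 0 lower, beside 19.2% and 23.8% of all features. Aldh3a2, which oxidises fatty aldehydes, read -0.62 and -0.29 at 1 week, -0.53 and -0.17 at 2 weeks, and 0.10 and 0.37 at 4 weeks. Acadvl, the very long chain acyl-CoA dehydrogenase, read -0.90, -0.16, 0.03, -0.83, 0.13 and 0.27 in order of age. These 2 genes and Abcd3 are the 3 of the list with an unadjusted p under 0.05, against 1.92% of all features on the higher side. Their differences were 0.69 ± 0.25 for Aldh3a2 and 0.73 ± 0.31 for Acadvl, with adjusted p values of 0.54 and 0.59, and Acadvl gave 0.36 without 1 week A. The medians of both lists lay between 0.19 and 0.50 for glycolysis and between 0.14 and 0.42 for fatty acid oxidation over the alternatives.

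The tricarboxylic acid cycle resembled them in its count, 14 of 19 higher with a median of 0.13, but that median was -0.01 without 4 weeks B and 0.02 without 1 week A. Dld, a subunit shared by the 2-oxo acid dehydrogenases, read -0.36 and -0.28 at 1 week, -0.22 and -1.04 at 2 weeks, and 0.47 and 0.34 at 4 weeks (0.72 ± 0.33), whereas Dlat, its partner in pyruvate dehydrogenase, was lower (-0.52 ± 0.24, or -0.20 without 4 weeks A). Oxidative phosphorylation had no lean, with 22 of 40 genes higher and a median of 0.03 (-0.09 without 1 week A and 0.22 without 1 week B), although it contains Atp5pb. Cycs, cytochrome c, lay on the higher side (0.72 ± 0.27), and Cyc1, its reductase (-0.79 ± 0.33), and Ndufb7, a subunit of complex I (-0.61 ± 0.25), on the lower. Cycs gave 0.34 without 4 weeks B, and Cyc1 and Ndufb7 gave -0.27 and -0.31 without 4 weeks A. Cytosolic ribosomal proteins (29 of 68 higher, median -0.04) also lay at the level of all features, and their median changed sign under 5 alternatives. Rpl14 and Rpl37a, of the large subunit, gave -0.73 ± 0.26 and -0.53 ± 0.22.

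Among the remaining lists, chaperones were higher in 22 of 30 genes, with a median of 0.13. It ran from 0.05 to 0.34 over the 19 alternatives, some of which cannot change it. It was 0.05 with 17 of 30 higher without 4 weeks B, and 0.07 with 18 of 30 higher without 1 week B. Ages did not overlap in 10 higher and 3 lower members, beside 19.2% and 23.8% of all features. Hspb1, the small heat shock protein of the actin cytoskeleton, was the exception with the smallest p, at -0.11 and 0.04 at 1 week and -0.67 and -0.99 at 4 weeks (-0.79 ± 0.24). Hspa9, the chaperone of the mitochondrial matrix, stood on the other side (0.69 ± 0.41). Antioxidant genes were higher in 12 of 20 with a median of 0.09, which changed sign without 1 week A or 4 weeks B. Selenop, the selenium carrier of plasma, gave 1.20 ± 0.54 there, with 1.80 on 4 weeks B against 0.36 on 4 weeks A, and the difference was 0.48 without 4 weeks B. Splicing factors were higher in 17 of 31, with a median of 0.11 that changed sign without 1 week A. Their member Sfpq, named after its values were seen, has its probe 3 numbers after the probe of Xist and Tsix and read 1.36 on 2 weeks A and -1.31 on 4 weeks B, the arrays and signs of that probe. Of 7 genes of renin, angiotensin and sodium regulation 3 were higher, with a median of -0.14. Nr3c1, the glucocorticoid receptor, read -0.70, -0.69, -0.55, -0.05, 0.09 and 0.10 in order of age (0.79 ± 0.59), and Sgk1, a kinase induced by mineralocorticoids, gave -0.45 ± 0.32, or -0.07 without 4 weeks B.

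**Figure D5:**
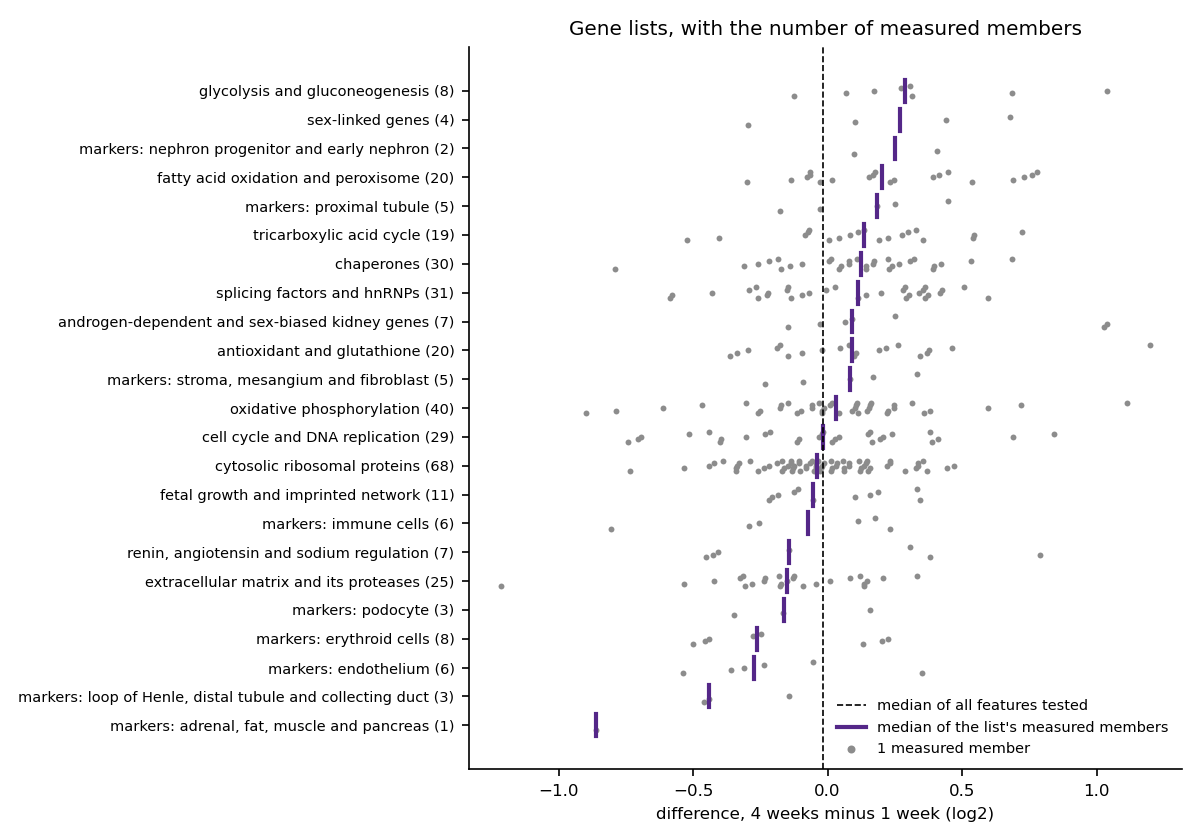
Difference between 4 weeks and 1 week (log2) for each measured member of 23 gene lists (grey points, spread vertically for legibility), with the list's median (purple bar) and the median of all 4685 features (dashed line, -0.02). Glycolysis (median 0.29) and fatty acid oxidation (0.20) lie to the right of the dashed line and endothelial markers (-0.27) to its left.

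The course was not a steady one for most features. The mean of 2 weeks fell between those of 1 and 4 weeks in 48.1% of the 898 features that were higher without overlap and in 46.9% of the 1116 that were lower, against 32.0% of all features, a share that non-overlap of the outer ages itself raises. Between 1 and 2 weeks no feature passed the adjusted threshold (percent called 0, smallest adjusted p 0.356), and 305 (6.51%) had an unadjusted p under 0.05, 78 (1.66%) of them higher and 227 (4.85%) lower. Ages did not overlap in 632 features (13.5%) that were higher and 812 (17.3%) that were lower at 2 weeks. Between 2 and 4 weeks none passed either (percent called 0, smallest adjusted p 0.0926), with 587 (12.5%) at an unadjusted p under 0.05, 265 (5.66%) higher and 322 (6.87%) lower at 4 weeks. Here ages did not overlap in 877 (18.7%) higher and 1036 (22.1%) lower. The test for any difference among the 3 ages also called none (percent called 0, smallest adjusted p 0.223; 10.4% at an unadjusted p under 0.05).

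Several genes differed most at 2 weeks, and these had small p values against both other ages. A730082K24Rik, an uncharacterised transcript, read 0.11 and -0.94 at 1 week, -2.56 and -2.41 at 2 weeks, and -0.41 and -0.38 at 4 weeks. Both arrays of 2 weeks lay far below the other 4, by -2.07 ± 0.33 (SE; limma, adjusted p = 0.36) against 1 week, and 4 weeks lay above 2 weeks by 2.09 ± 0.33 (adjusted p = 0.09). Fcgbp, which encodes a mucin-like binding protein of mucosal secretions, had almost the same profile, at 0.49 and -1.13, -1.90 and -2.14, and -0.21 and -0.19. So did Irgq, an immunity-related GTPase family member, at 0.47 and -0.77, -1.42 and -1.78, and 0.01 and 0.33. In all, 25 features lay below -1 on both arrays of 2 weeks, 9 genes and 16 probes without a single symbol. Their medians were 0.13 and -0.97 at 1 week, -1.67 and -1.83 at 2 weeks, and -0.04 and 0.02 at 4 weeks, and 21 of 25 were below -0.5 on 1 week B against 1 on 1 week A. Other arrays of the series showed the features unevenly, and not at 2 weeks alone. In intermittent hypoxia their median was -0.68 and -0.83 at 1 week and -0.36 and -0.45 at 4 weeks. At 2 weeks it was -1.49 on array A and -0.01 on array B, where 15 of the 25 had a value. In constant hypoxia, with a value for 9 to 17 of them, it was -0.14 and -0.10 at 1 week, -0.20 and -0.31 at 2 weeks, and -1.12 and -0.46 at 4 weeks.

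Klf9, a zinc finger transcription factor that thyroid hormone and glucocorticoids induce, read 0.81 and 0.13 at 1 week, -0.80 and -0.96 at 2 weeks, and -0.12 and 0.73 at 4 weeks. Supt6, a histone chaperone of transcription elongation, read 0.10, -0.16, -0.98, -1.08, -0.04 and 0.25 in order of age. Both of these probes were lower at 2 weeks than on any other array, by -1.35 ± 0.29 and -1.0 ± 0.22 against 1 week (adjusted p = 0.36 each). A second Supt6 probe, without a value on 4 weeks B, did not share this low: it read -0.54 and -0.12 at 1 week, 0.17 and -0.28 at 2 weeks, and -0.18 on 4 weeks A. Lgals4, an epithelial galectin, and Edc4, a protein of the mRNA decapping complex, were the other lower genes named (-1.54 ± 0.33 and -0.85 ± 0.20). Higher at 2 weeks than at 1 week were Rpl10a, a ribosomal protein (0.76 ± 0.22), Sumo2, a ubiquitin-like modifier (0.78 ± 0.25), Clk4, a kinase of splicing factors (0.69 ± 0.21), Nexn, an actin-binding protein (0.78 ± 0.24), and Eapp, a nuclear protein that binds E2F factors (0.81 ± 0.25).

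Between 2 and 4 weeks, genes already picked in the comparisons with 1 week were left out of the naming. These included Pgk1 (1.28 ± 0.24) and A730082K24Rik on the higher side and Capg (-1.42 ± 0.34) on the lower. Of the rest, those with the smallest p on the higher side were Lrrc9, a leucine-rich repeat gene, Zwint, a kinetochore protein, and Cltc, the clathrin heavy chain. Irgq and Lima1, an actin-bundling protein, completed this group. Cltc rested on 1 probe, at -0.63 and -1.49 at 2 weeks and 0.33 and 0.54 at 4 weeks, and a second, without a value on 1 week A, had the other sign, at -0.37 and -0.07 against -0.51 and -0.24. Lrrc9 read -0.29 and -0.37 at 1 week, -1.0 and -0.87 at 2 weeks, and 0.10 and 0.15 at 4 weeks, so that the 3 ages did not overlap and 2 weeks was lowest. Its difference was 1.06 ± 0.19 (adjusted p = 0.09), and it passed without the moderation of the variances (adjusted p = 0.0098). Zwint read -0.83 and -0.91 at 2 weeks against 0.57 and 0.68 at 4 weeks (1.5 ± 0.28). On the lower side were Msmo1, an enzyme of cholesterol synthesis (0.09 and 0.23 at 2 weeks, -0.96 and -0.81 at 4 weeks; -1.05 ± 0.27), Ptpn13, a tyrosine phosphatase (-0.94 ± 0.24), Tomm7, of the mitochondrial import pore (-1.19 ± 0.30), Eif2b3, a translation factor subunit (-1.15 ± 0.30), and Bsdc1 (-1.11 ± 0.27). With the running median removed 40 features passed in this comparison, 38 higher and 2 lower at 4 weeks. By the values before that removal, 38 of the 40 had their lowest mean at 2 weeks, beside 32.2% of all features. Being called as higher at 4 weeks than at 2 weeks itself raises this share. With the medians of blocks of probes removed 22 passed, of which 21 were among the 40. Further genes with small p in the test over 3 ages were Txn2, the mitochondrial thioredoxin, Ahcy, which hydrolyses adenosylhomocysteine, and Myg1 and D1Ertd471e, and all 4 also had their lowest mean at 2 weeks.

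Hdc, which encodes the histidine decarboxylase that makes histamine, was missing on 1 array in each of its 2 probes and so was not tested. One probe read 0.31 and -0.74 at 1 week, 3.01 and 2.84 at 2 weeks, and -0.63 on 4 weeks A. The other read 1.80 on 2 weeks A and -1.73 on 4 weeks B, arrays on which the sex-linked probes were far from 0, and 0.05 to 0.48 on the other 3.

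The courses in hypoxia were set beside that in room air to see where room air differed. None of the 4635 features passed for a difference between the course in intermittent hypoxia and that in room air (percent called 0, smallest adjusted p 0.505), with 371 (8%) at an unadjusted p under 0.05, 274 (5.91%) of them higher and 97 (2.09%) lower in intermittent hypoxia. For constant hypoxia none of 4545 passed (percent called 0, smallest adjusted p 0.205), with 137 (3.01%), 61 (1.34%) higher and 76 (1.67%) lower in constant hypoxia. The arrays of constant hypoxia have deposited medians between -1.17 and -0.15, unlike the others, and were centred before the fit.

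The courses of the 24 named genes in each hypoxia regime come from other arrays than the room air course. Of the 12 genes higher at 4 weeks in room air, the intermittent course was measured on all its 4 arrays in 10 and was below 0 in 9 of them, with a median of -0.25, while the constant course was above 0 in all 12, with a median of 0.15. Pgk1 differed by -0.38 between 4 weeks and 1 week in intermittent and by 0.44 in constant hypoxia, against 1.04 in room air. Of the 12 lower genes, the intermittent course was below 0 in 3 of 7 and the constant course in 9 of 10. Among all features with non-overlapping ages in room air, the intermittent course had the same sign as room air in 29.1% of 820 higher and 30.0% of 1006 lower ones, beside 49.1% above and 50.9% below 0 over all features. For the constant course these shares were 63.3% of 806 and 80.2% of 946, beside 44.8% and 55.2%. Across features the room air differences correlated at -0.38 with the intermittent ones (n = 4269) and at 0.32 with the constant ones (n = 4073), and at -0.23 and 0.37 with the running median removed; the arrays share their probe layout, and these are descriptions. Single genes with the smallest p for intermittent minus room air were, on the higher side, Dsc2 (1.83), Brms1 (1.57), Mllt6 (1.3), Snord123 (1.45) and Abcf1 (1.37), and on the lower side 2410002F23Rik (-2.01), Nexn (-1.76), Pgk1 (-1.42), Adcy3 (-1.35) and Cycs (-1.3), with adjusted p values of 0.505 to 0.518 in limma. Dsc2, Snord123, Pgk1 and Adcy3 had been named for their room air difference, which the contrast subtracts. Their place among these genes thus partly repeats that choice. For Dsc2 1 array alone stood for 4 weeks of intermittent hypoxia, and for 2410002F23Rik and Nexn 1 array alone stood for its first week. The differences of these genes have no spread of their own at that age. For constant minus room air, only some of the genes with the smallest p are given. Tapbp (1.46, adjusted p = 0.811 in limma) was on the higher side, and it too had been named for the room air difference that is subtracted. On the lower side were Aldh3a2 (-2.32), Hdac2, a histone deacetylase (-2.74), and Ufd1, a partner of Vcp (-2.07). In these 3 genes 1 array alone stood for 4 weeks of constant hypoxia, and their probes are neighbours, at numbers 15999, 15998 and 15975, in a series whose room air ratios follow the probe number. The part of position in these differences was not tested.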

How the data were processed

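The authors deposited, in the series' value table, log2 ratios of the 2 channels of each array; the log base was checked by finding ratios of whole numbers among the values. For its processing the series' design text refers to an earlier publication, which was not used here, and neither was scanner output. Probes were named from the platform's annotation of 1 gene symbol (9604 probes, 9496 of them matched to RefSeq by Entrez ID; 213 had several symbols and 6311 none). Probes with a value on all 6 room air arrays were kept, probes of a gene averaged and arrays centred on their median. Group means over all 18 arrays entered 1 linear model (limma 3.58.1, R 4.3.3), with moderated variances (prior degrees of freedom 5.32), and p values adjusted by Benjamini-Hochberg over all features. Named genes were the 12 in each direction with non-overlapping ages and smallest p (5 for other contrasts, up to 4 per list). The other contrasts between ages left out genes already named. The fit was tested on simulated data. Members and lists were chosen with earlier results of these data known. P values rest on 1 spread per feature, taken within the groups of all 18 arrays and moderated. They do not measure the spread between the 2 pairs of animals of a room air age alone. The letters A and B did not pair the arrays: the A minus B deviations of 2 ages correlated at -0.14, -0.05 and 0.13. Alternatives covered centring, quantile normalization, missing values, arrays fitted, variance model, trends along the probe number, the letter as a block, and each array left out.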

Additional observations from a re-analysis of the deposited data

How the results depend on the processing

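No feature passed an adjusted p of 0.05 in any of the 6 comparisons (limma; 376, 305, 587, 487, 371 and 137 features had an unadjusted p under 0.05, in the order 4 weeks minus 1 week, 2 minus 1, 4 minus 2, any age, intermittent course and constant course). The count was also 0 in all 6 with the replicate block (array letter A or B), which the letters do not support as a pairing. It was 0 wherever it was run with quantile normalization, room air arrays alone, room air and intermittent arrays, at least 15 of 18 values, separate probes, and trend with robust moderation. Uncentred values gave 1 for the constant course (Aldh3a2). A value on at least 1 array of each age gave 1 for 2 minus 1 and 1 for any age (1 unnamed probe). The unmoderated test gave 1 for 4 minus 2 and 1 for any age (Lrrc9). The running median removed gave 1 for 4 minus 1 (Tapbp), 40 for 4 minus 2 and 9 for any age, and block medians removed gave 22 for 4 minus 2. Leaving out 1 array gave 0 to 1 for 4 minus 1 (Apoa1 without 1 week A), 0 to 8 for 2 minus 1 (8 without 1 week B), 0 to 11 for 4 minus 2 (11 without 1 week A or B, 5 without 2 weeks A), 0 to 8 for any age (8 without 1 week B, 6 without 1 week A), 0 to 0 for the intermittent course and 0 to 1 for the constant course (without 4 weeks B). Of 453 values of the 24 named genes under these alternatives, 452 kept their direction and side of the threshold, 1 newly passed (Tapbp) and 0 changed sign. This count is no measure of robustness. The genes were chosen for ages that do not overlap, so leaving out 1 array cannot change a sign. None had passed before, and several alternatives cannot change the difference between 4 weeks and 1 week. A lone array is assumed to vary like the other groups. With 2 arrays an age, and a median standard error of 0.29, a typical difference of 0.23 was not resolved. Signal over background is not part of the deposited values.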

Other observations

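In a division of the probe numbers into 32 equal blocks, the first probe of each block has no gene symbol and was often strongly negative where it had a value. On 1 week B, 22 of 23 such probes lay below -1, with a median of -2.11, against 0.32% of all other probes; on 1 week A it was 10 of 12 (0.69%), on 4 weeks A 6 of 6 (1.59%) and on 4 weeks B 5 of 5 (0.955%). On 2 weeks A none of the 32 had a value, and on 2 weeks B 2 of 5 lay below -1. None was measured on all 6 arrays, so none entered a test.

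Of probes without a value, 3259 of the 16128 probes had none on any room air array, and 2187 lacked it on 1 array alone.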
